A study of Mus musculus with 12 samples.

Results

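The comparison described here is the oncogene by diet interaction in mouse liver, that is, whether the effect of c-MET/β-catenin on each transcript differed between mice on a low-protein diet (LPD) and mice on chow diet (CD). It was computed for every gene as the log2 fold change over empty vector (Vec) in LPD livers less the one in CD livers. All 12 libraries of the series entered the contrast, with 1 library per mouse and 3 mice in each of 4 groups. Of 27179 genes counted, 13947 had enough reads to be tested, and those whose oncogene effect changed sign between the diets, or was equal on both, are described in depth. A gene was called where the adjusted p of edgeR's quasi-likelihood test, corrected by Benjamini-Hochberg over all genes tested, was under 0.05.

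The 2 diets and 2 injections give 4 groups, written CD Vec, CD oncogene, LPD Vec and LPD oncogene. Here oncogene stands for c-MET and β-catenin together. The labels call the control livers WT, and these were taken as the vector control livers of the paper. Male mice were placed on their diet before plasmids encoding human c-MET and N-terminally truncated, constitutively active β-catenin (ΔN90), or empty vector, were injected hydrodynamically into the tail vein, where Sleeping Beauty transposase integrates the oncogenes into the hepatocytes that take them up. All groups were harvested when the CD-fed c-MET/β-catenin mice reached their end point, so that livers of the oncogene group on LPD were taken at a matched time and not at their own end point. Only part of the hepatocytes receive plasmid. The transgenic c-MET is human and was not measured by alignment to the mouse genome. Age and strain of these 12 mice are not given in the labels, while the paper's methods name both for its tumor experiments in general. The labels name the cell type as hepatocyte, but RNA came from whole liver tissue, and the summed levels of the macrophage, endothelial and stellate cell marker lists were at least 171, 190.2 and 296 CPM (counts scaled to library size) in every library.

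Liver is the main organ of cholesterol synthesis. The pathway runs from acetyl-CoA through mevalonate and squalene to lanosterol and cholesterol, and its enzymes share transcriptional control by SREBP-2 (Srebf2), which is released from the endoplasmic reticulum when membrane sterol is low. c-MET and activated β-catenin are a common combination of drivers in hepatocellular carcinoma, and dietary protein sets the supply of amino acids and nitrogen to the liver.

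The oncogene effect differed between the diets for 1243 genes (8.91% of those tested), of which 626 (4.49%) had an interaction above 0 and 617 (4.42%) below 0, and 3600 genes had an unadjusted p under 0.05. On CD 4933 genes were called for the oncogene effect (35.4%), and on LPD 184 were called (1.32%). Most interaction genes, 720, had an effect of the same sign that was smaller on LPD. A further 430 had effects of opposite sign, but under 1.5-fold on at least 1 diet. In 90 genes (0.645% of those tested) the effect reversed by at least 1.5-fold on each diet, 59 of them up on CD and down on LPD and 31 down on CD and up on LPD. In 3 genes the effect had the same sign and was larger on LPD. These classes were formed from the measured effects, so their sizes are descriptions and were not tested. At the shared harvest time the paper reports a reduced tumor burden on LPD. A list of 20 mitosis genes summed to 250.5 to 374.5 CPM in CD oncogene and 41.3 to 107.8 CPM in LPD oncogene. The part of tumor content in these classes was not tested. The counts depended on the libraries and covariates: the 1243 interaction genes became 391 without LPD Vec replicate 2, 233 with a clock score as a covariate and 85 with a run of libraries as a covariate, and the 90 reversed genes became 44, 28 and 15.

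**Figure D1:**
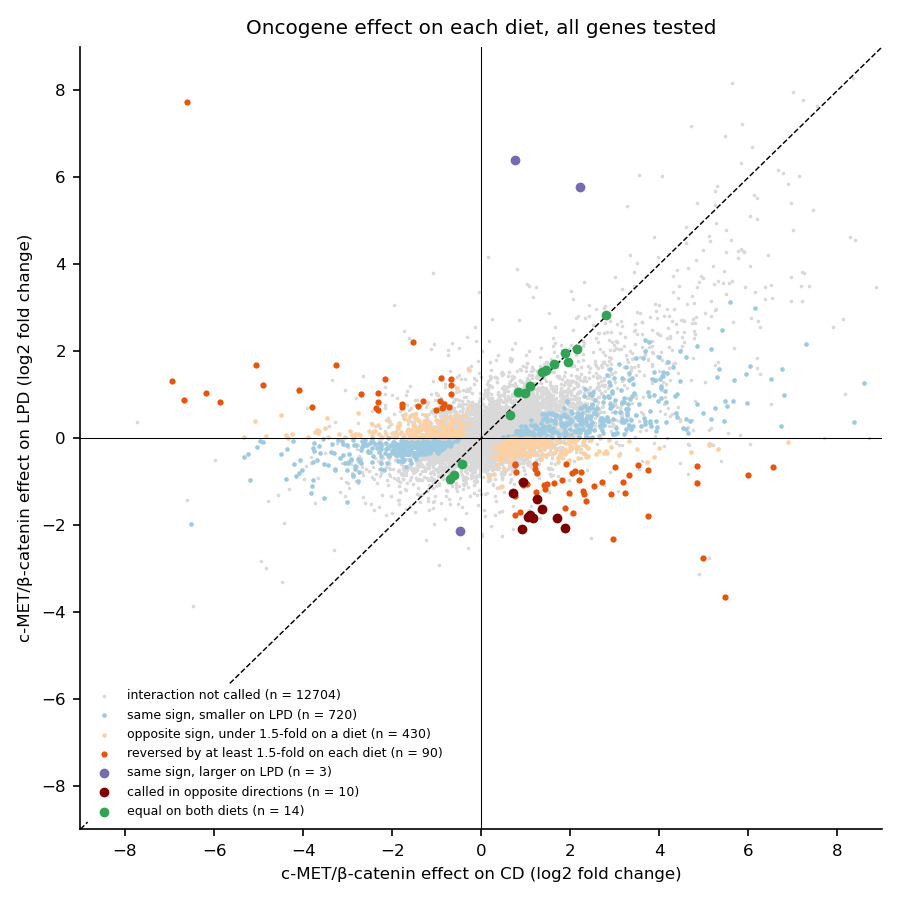
Oncogene effect (log2 fold change over Vec) on CD (x axis) and on LPD (y axis) for each of the 13947 genes tested. Points on the dashed line have the same effect on both diets, the 90 reversed genes lie in the upper left and lower right quadrants and include the 10 called in opposite directions, and the 14 equal genes lie along the line.

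The strictest reversal, called on CD and called on LPD in the opposite direction, was found in 10 genes (0.0717%), and all 10 were up on CD and down on LPD. Of these, 7 were enzymes of cholesterol synthesis: Hmgcs1, Mvd, Fdps, Sqle, Lss, Nsdhl and Msmo1. The others were Aldoc, Ggct and 4930483K19Rik. Between the oncogene groups all 10 were lower on LPD by at least 1.5-fold and passed the test of that difference. Of all genes, 11.3% passed that test in that direction, with no limit on the fold. Between the Vec groups the fitted level was higher on LPD in all 10, by at least 1.5-fold in 8, but only Ggct passed the test (0.308% of all genes did, and 0.186% with a higher level on LPD). The log2 difference between the Vec groups was 1.70 for Hmgcs1 (adjusted p = 0.0886), 0.60 for Lss (adjusted p = 0.396) and 0.05 for Aldoc (adjusted p = 0.967). As these shifts use the same libraries as the interaction, they describe it and do not support it independently.

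Hmgcs1, which makes HMG-CoA for the mevalonate pathway, measured 242, 80.5 and 208 CPM (scaled by TMM factors) in CD Vec replicates 1, 2 and 3, 383, 764 and 804 CPM in CD oncogene, 564, 704 and 453 CPM in LPD Vec, and 118, 174 and 121 CPM in LPD oncogene. The oncogene livers thus lay above all Vec livers on CD and below all Vec livers on LPD, with no overlap on either diet. The log2 fold change was 1.88 on CD (SE 0.39, adjusted p = 0.00326) and -2.06 on LPD (SE 0.39, adjusted p = 0.0275), and the interaction was -3.94 (SE 0.55, adjusted p = 0.00343). Sqle, the epoxidase that commits squalene to sterols, measured 41.6, 37.8 and 69.9 CPM in CD Vec, 149, 169 and 169.8 CPM in CD oncogene, 144, 182 and 135 CPM in LPD Vec and 29.1, 66.3 and 32.5 CPM in LPD oncogene. Its groups did not overlap on either diet. Its effects were 1.71 (adjusted p = 0.00145) on CD and -1.85 (adjusted p = 0.0140) on LPD. Their difference was -3.55 (SE 0.44, adjusted p = 0.00300).

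Mvd, which decarboxylates mevalonate diphosphate, measured 19.2, 25.4 and 24.0 CPM in CD Vec, 26.3, 63.7 and 64.8 CPM in CD oncogene, 48.3, 46.8 and 37.5 CPM in LPD Vec and 10.02, 15.1 and 11.98 CPM in LPD oncogene. On CD replicate 1 of the oncogene livers lay just above the highest Vec liver, whereas on LPD the groups were far apart. The interaction of Mvd was -3.01 (SE 0.42, adjusted p = 0.00334). Nsdhl, a sterol dehydrogenase of the steps after lanosterol, went from 59.5, 34.2 and 74.0 CPM to 114, 159 and 159 CPM on CD and from 119, 134 and 101 CPM to 29.3, 54.4 and 29.9 CPM on LPD. Its groups were separate on both diets, and its interaction was -3.003 (SE 0.42, adjusted p = 0.00343). Lss, which cyclizes squalene epoxide to lanosterol, went from 48.3, 33.1 and 58.3 CPM to 83.8, 130.1 and 119.7 CPM on CD and from 70.8, 84.8 and 56.8 CPM to 24.4, 33.3 and 22.8 CPM on LPD. It was separate on both diets as well, with an interaction of -2.65 (SE 0.34, adjusted p = 0.00314).

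Fdps, the farnesyl diphosphate synthase, went from 207, 111 and 215 CPM to 235, 433 and 435 CPM on CD and from 310.5, 387 and 304 CPM to 79.8, 120.1 and 85.0 CPM on LPD (interaction -2.86, SE 0.41, adjusted p = 0.00343). The groups did not overlap, although oncogene replicate 1 on CD lay near the Vec livers. Msmo1, a methyl sterol monooxygenase, went from 97.4, 84.6 and 199.9 CPM to 174, 279 and 269 CPM on CD and from 261, 274 and 207 CPM to 49.1, 67.1 and 57.5 CPM on LPD (interaction -3.01, SE 0.43, adjusted p = 0.00343). Its CD groups overlapped by 1 library on each side, since Vec replicate 3 lay above oncogene replicate 1. In all 7 enzymes replicate 1 was the lowest of the CD oncogene libraries.

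**Figure D2:**
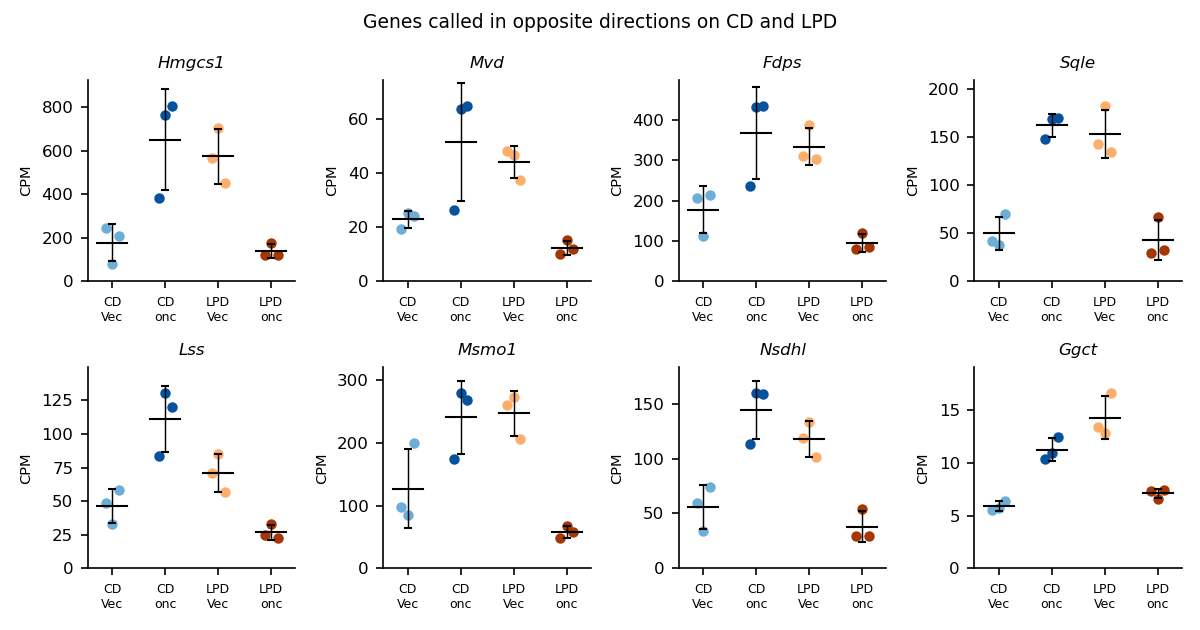
CPM of 8 of the genes called in opposite directions, with each point a library and the line and bar the mean ± SD of 3 mice. On CD the c-MET/β-catenin mean lies above the Vec mean in every panel and on LPD it lies below, as for Hmgcs1 with 383 to 804 against 80.5 to 242 CPM on CD and 118 to 174 against 453 to 704 CPM on LPD.

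The 3 other genes were not sterol enzymes. Ggct, the γ-glutamylcyclotransferase that acts on γ-glutamyl amino acids formed from glutathione, measured 5.50, 5.69 and 6.405 CPM in CD Vec, 10.3, 10.9 and 12.4 CPM in CD oncogene, 13.4, 12.8 and 16.6 CPM in LPD Vec and 7.33, 6.56 and 7.39 CPM in LPD oncogene. The spread within its groups was small and no groups overlapped, and its interaction was -1.94 (SE 0.22, adjusted p = 0.00174). Aldoc, an aldolase isoform, went from 13.6, 14.8 and 19.1 CPM to 26.2, 29.5 and 22.2 CPM on CD and from 16.9, 20.1 and 12.1 CPM to 6.94, 7.47 and 6.03 CPM on LPD. Its groups were separate on each diet and its interaction was -1.98 (SE 0.29, adjusted p = 0.00343). The noncoding 4930483K19Rik stayed under 5 CPM in every group. It fell outside the naming rule and was named after its values were seen. It overlaps Lss on chromosome 10 on the opposite strand (76545871 to 76562226, with Lss from 76531565 to 76557139, GRCm38.p6). The strand setting of the counting is not stated, so its reads and those of Lss cannot be told apart.

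The calls on LPD rested on little margin in most of these genes, and some calls on CD did too. The CD call of Msmo1 (adjusted p = 0.0313) was lost in 7 of 20 alternative analyses, 4 of them omissions of a single library. Its LPD call was kept in all 20. The CD call of Aldoc was lost in 5 and that of 4930483K19Rik in 6. The LPD call of Hmgcs1 was lost when any 1 of the 6 LPD libraries was left out (adjusted p up to 0.109), that of Sqle without LPD Vec replicate 1 or 2 (up to 0.0660), and the number of 20 alternative analyses in which a gene kept both opposite calls ran from 6 for 4930483K19Rik and 12 for Hmgcs1 to 18 for Ggct. With the header run (a grouping of libraries described with the cholesterol list) as a covariate, Ggct alone of the 10 kept both calls, and all 7 sterol enzymes lost at least 1 of them. Within the run that holds all 4 groups Hmgcs1 and Mvd alone kept both. The effects of these 10 genes on CD and on LPD did not change sign in any of the 20 alternatives, and the interaction of each of the 7 enzymes was called in all 20, except for Sqle and Nsdhl within the run. Just outside the class lay Mvk (LPD adjusted p = 0.0589), Dhcr7 (CD adjusted p = 0.0574) and Plcxd2 (LPD adjusted p = 0.0511), of which Plcxd2 was down on CD (-0.88) and up on LPD (0.68).

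Beyond the strict class, the cholesterol synthesis list of 20 genes was described as a whole. The interaction was called for 16 (80% of the list against 8.91% of all genes), all 16 below 0 and all 16 reversed by at least 1.5-fold on each diet. On CD 12 members rose and none fell, and on LPD 8 fell and none rose. Of all genes, 35.4% were called on CD and 1.32% on LPD, in either direction. The median log2 fold change over the list was 1.08 on CD and -1.57 on LPD, and the median interaction was -2.63, where the medians over all genes were -0.01, 0.01 and 0.02. The level of the list, summed, lay between 1876 and 3739 CPM in CD Vec, between 3434 and 6424 CPM in CD oncogene, between 4087 and 5081 CPM in LPD Vec and between 1708 and 2390 CPM in LPD oncogene. The LPD groups did not overlap in this sum and the CD groups did.

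The reversed members ran through the pathway. Among the early enzymes, Mvk, the mevalonate kinase, measured 17.0, 15.1 and 31.8 CPM in CD Vec, 53.4, 104 and 95.3 CPM in CD oncogene, 34.9, 42.7 and 36.1 CPM in LPD Vec and 16.4, 15.6 and 15.5 CPM in LPD oncogene, with an interaction of -3.24 (SE 0.40, adjusted p = 0.00312). Of the late steps, Cyp51, which demethylates lanosterol, had effects of 1.44 and -1.17 on CD and LPD.

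The regulators divided. Srebf2, the transcription factor of the pathway, measured 48.4, 28.4 and 59.3 CPM in CD Vec, 103, 123 and 99.5 CPM in CD oncogene, 75.6, 84.8 and 73.0 CPM in LPD Vec and 40.8, 48.2 and 44.0 CPM in LPD oncogene. Its groups did not overlap on either diet, and its interaction was -2.07 (adjusted p = 0.00346). Insig1, which retains SREBP in the endoplasmic reticulum, had -0.07 on CD and -1.54 on LPD (interaction -1.47, adjusted p = 0.107). Sc5d and the sterol carrier Stard4 had interactions of -1.15 (adjusted p = 0.175) and -0.15 (adjusted p = 0.793). None of these 3 was called on either diet.

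**Figure D3:**
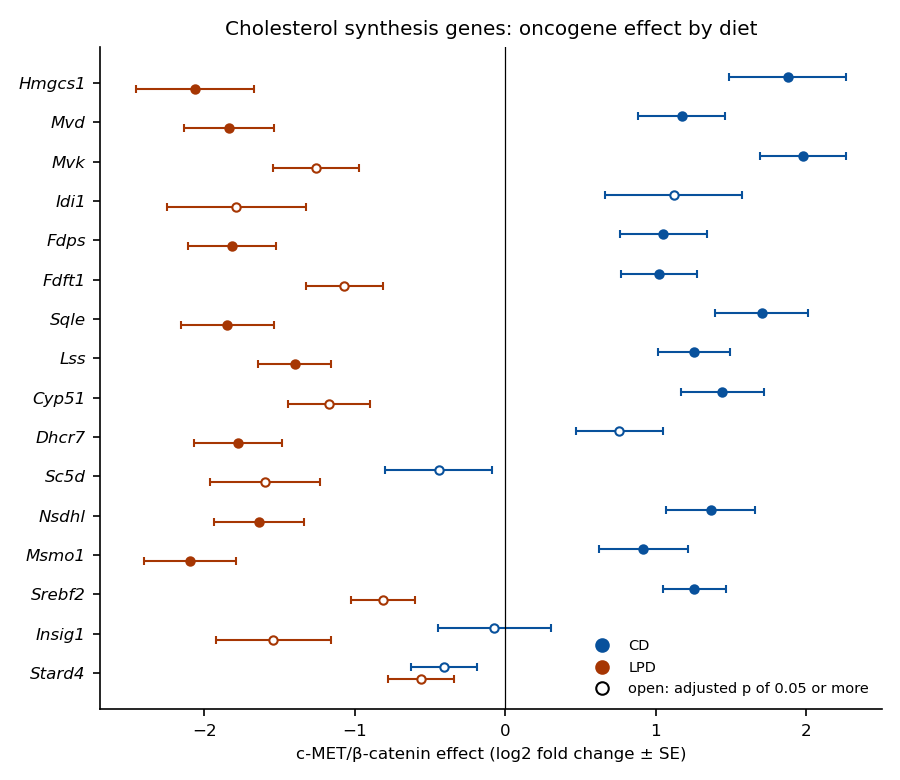
Oncogene effect ± SE (log2 fold change over Vec) for 16 genes of the cholesterol synthesis list, on CD in blue and on LPD in dark orange, with open points where the adjusted p was 0.05 or more. The 13 of them called for the interaction have their CD point right of 0 and their LPD point left of it, and Sc5d, Insig1 and Stard4 do not.

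Library properties moved with these groups. Dataset numbers in a header line of the count table fall into 3 runs that the labels do not explain: CD oncogene replicates 1 and 2 form a run, CD Vec replicates 1 and 2 with LPD Vec replicate 1 form another, and the other 7 libraries form a run that holds all 4 groups. Within that run, which holds a single CD library of each injection, 11 of 20 members were called and their list had a median interaction of -2.42. The spread in that fit came from the LPD groups, and the single CD libraries were assumed to vary alike. With the run as a covariate the median was -2.70 with 11 called. A clock score, the mean log2 CPM of Arntl, Npas2 and Clock minus that of Dbp, Nr1d1, Nr1d2, Per3 and Ciart, was -5.07, -5.23 and -5.18 in CD Vec, 0.61, -4.33 and -0.20 in CD oncogene, -4.19, -3.65 and -3.02 in LPD Vec and -2.92, -3.13 and -3.82 in LPD oncogene. With this score as a covariate the median interaction of the list was -2.95 and 14 of 20 were called. With run as a covariate the CD oncogene level rested on replicate 3, because replicates 1 and 2 form a run of their own. That fit therefore cannot separate run from the oncogene effect on CD in those 2 libraries. The part of run and clock phase in the sterol results was not tested further. Total counts only, without TMM, shifted the median interaction of all genes to -0.16, and on that scale the list's median was -2.81 with 16 of 20 called.

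The promoters of 4 of the enzymes called in opposite directions, each the 250 bases before an annotated transcript start, are printed from RefSeq (GRCm38.p6) because these genes moved together and are textbook SREBP-2 targets. They are Hmgcs1 (chr13:119690101-119690350, plus strand), Mvd (chr8:122443423-122443672, minus strand), Nsdhl (chrX:72918271-72918520, plus strand) and Msmo1 (chr8:64733579-64733828, minus strand), written 5′ to 3′ along the gene. Capitals mark the core of a sterol regulatory element (TCACCCC) and the CCAAT box that NF-Y binds, each searched on both strands, so that ATTGG is a CCAAT box on the other strand.
Hmgcs1: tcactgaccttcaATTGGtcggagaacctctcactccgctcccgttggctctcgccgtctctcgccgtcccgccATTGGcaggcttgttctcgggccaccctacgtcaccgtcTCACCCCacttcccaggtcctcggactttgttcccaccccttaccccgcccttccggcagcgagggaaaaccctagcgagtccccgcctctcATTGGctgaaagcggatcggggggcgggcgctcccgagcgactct
Mvd: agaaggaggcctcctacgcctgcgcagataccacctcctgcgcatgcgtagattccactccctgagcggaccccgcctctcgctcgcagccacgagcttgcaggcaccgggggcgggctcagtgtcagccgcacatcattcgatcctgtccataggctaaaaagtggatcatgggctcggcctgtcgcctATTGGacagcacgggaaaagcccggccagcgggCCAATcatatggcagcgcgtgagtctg
Nsdhl: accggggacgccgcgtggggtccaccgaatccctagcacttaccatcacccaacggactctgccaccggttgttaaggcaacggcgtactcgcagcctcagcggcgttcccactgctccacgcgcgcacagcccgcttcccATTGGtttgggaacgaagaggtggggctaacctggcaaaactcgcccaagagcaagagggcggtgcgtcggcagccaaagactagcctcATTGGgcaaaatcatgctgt
Msmo1: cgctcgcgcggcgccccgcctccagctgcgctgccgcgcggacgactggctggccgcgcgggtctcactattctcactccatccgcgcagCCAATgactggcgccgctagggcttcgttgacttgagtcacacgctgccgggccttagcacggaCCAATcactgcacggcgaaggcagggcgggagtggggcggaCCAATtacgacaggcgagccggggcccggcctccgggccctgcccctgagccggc
A CCAAT box was found upstream of all 12 genes of the cholesterol list that had a promoter in the RefSeq table, against 40.4% of the 10806 genes tested that had one. The sterol element core was found in 2 of the 12, Hmgcs1 and Srebf2 (16.7% against 5.4%). Of the genes called in opposite directions whose promoters are not printed, Lss had 1 CCAAT box. Ggct, which is not a sterol enzyme, had 4, and Aldoc and 4930483K19Rik had none. Among the 52 reversed genes outside the cholesterol list the shares were 36.5% for the CCAAT box and 5.77% for the sterol core, and among 10 equal genes they were 40% and 0%. Promoters differ in base composition, which was not matched, and a match says nothing of binding in these livers.

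Other genes that rose on CD and fell on LPD by at least 1.5-fold, ranked by the smaller of both effects, were Nfe2, Arhgef2 and Egr1. Arhgef2 (chromosome 3 from 88593105 to 88649532), a guanine nucleotide exchange factor that binds microtubules, measured 5.30, 3.35 and 5.21 CPM in CD Vec, 37.3, 42.9 and 24.0 CPM in CD oncogene, 21.3, 28.6 and 47.4 CPM in LPD Vec and 10.7, 11.9 and 17.5 CPM in LPD oncogene. No groups overlapped within a diet, and LPD alone raised Arhgef2 in Vec livers by 2.80 (adjusted p = 0.00987), nearly as far as the oncogenes did on CD (2.90). Its effect on LPD was -1.28 (adjusted p = 0.0829), and its interaction of -4.18 (SE 0.47, adjusted p = 0.00174) was called in all 20 alternatives. Nfe2, a transcription factor of erythroid cells and platelets, measured 1.53, 0.227 and 0.833 CPM in CD Vec, 1.59, 9.83 and 9.10 CPM in CD oncogene, 3.31, 3.97 and 2.0002 CPM in LPD Vec and 0.684, 0.667 and 0.481 CPM in LPD oncogene, with an interaction of -5.29 (SE 0.97, adjusted p = 0.0104), which was lost with header run as a covariate (adjusted p = 0.0624).

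Genes of erythroid cells were also measured. The β-globin gene Hbb-bs, which has a near-identical copy, measured 9.83, 9.10 and 7.24 CPM in CD Vec and 56.9, 14.2 and 31.03 CPM in CD oncogene, and between 6.79 and 15.04 CPM in all 6 LPD libraries. All 3 CD oncogene livers lay above the CD Vec livers, with replicate 1 highest, whereas Nfe2 was high in replicates 2 and 3. The band 3 gene Slc4a1 measured 9.70, 4.77 and 8.87 CPM in CD oncogene and at most 0.398 CPM in the other 9 libraries. Of 7 erythroid genes tested, 4 were called for the interaction (8.91% of all genes were), 3 of them below 0. The summed level of the list was 176 to 229.9 CPM in the CD Vec group, 82.5 to 279.7 CPM in CD oncogene, 149.5 to 189 CPM in LPD Vec and 104 to 154 CPM in LPD oncogene, so that the CD groups overlapped in this sum. In bulk tissue a change in the number of cells of a type and a change in RNA per cell cannot be told apart, and the part of erythroid cells in the Nfe2 result was not tested. Egr1, an immediate early transcription factor, varied within groups, at 3.36, 3.58 and 29.7 CPM in CD Vec, 155, 155 and 36.4 CPM in CD oncogene, 28.3, 97.0 and 39.5 CPM in LPD Vec and 22.7, 18.1 and 28.3 CPM in LPD oncogene. Its interaction of -4.49 (SE 1.18, adjusted p = 0.0401) was lost in 14 of 20 alternatives, among them the omission of any of 9 single libraries (adjusted p up to 0.104).

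In the opposite direction, 31 genes fell on CD and rose on LPD by at least 1.5-fold, none of them called in both. The LPD effect was called in 1 of the 31. The fitted shift between the Vec groups was toward lower levels on LPD in all 31, and by at least 1.5-fold in 26. Single livers overlapped in some, Mup2 and Mup8 among them. Of all 13947 genes tested, 8813 had a Vec shift in the direction of their CD effect, 1262 of them by at least 1.5-fold. These shifts use the same libraries as the interaction, so they describe it and do not support it independently. Onecut1 (chromosome 9 from 74861921 to 74889648), a hepatocyte transcription factor also known as HNF6, measured 36.5, 87.6 and 68.0 CPM in CD Vec, 11.2, 7.996 and 10.1 CPM in CD oncogene, 4.99, 16.5 and 28.7 CPM in LPD Vec and 39.4, 20.3 and 41.7 CPM in LPD oncogene. On CD the groups were far apart, while on LPD they overlapped. The effect was -2.71 on CD (adjusted p = 0.00268) and 1.02 on LPD (adjusted p = 0.510), and the interaction was 3.72 (SE 0.74, adjusted p = 0.0147). That call was lost with header run or clock score as a covariate and within the run (adjusted p up to 0.145), as were those of Alas1 (up to 0.202), Cyp4a12b (up to 0.124) and Mup21 (up to 0.280). Alas1, the first enzyme of heme synthesis, measured 483, 1456 and 556 CPM in CD Vec, 138, 226 and 197 CPM in CD oncogene, 175, 74.6 and 58.0 CPM in LPD Vec and 139, 321 and 322 CPM in LPD oncogene, with an interaction of 3.50 (SE 0.74, adjusted p = 0.0184). Its groups were separate on CD and overlapped on LPD. Without LPD Vec replicate 2 that call was lost (adjusted p = 0.0567).

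Several of these genes are male-biased and depend on pulsatile growth hormone. Cish, a feedback inhibitor induced by Stat5, measured 7.69, 25.4 and 81.5 CPM in CD Vec, 14.7, 8.12 and 16.9 CPM in CD oncogene, 3.89, 1.77 and 3.33 CPM in LPD Vec and 10.5, 9.68 and 21.3 CPM in LPD oncogene. The CD groups overlapped and the LPD groups did not, yet neither effect was called (-1.53, adjusted p = 0.0998 and 2.21, adjusted p = 0.232). Its interaction of 3.74 (SE 0.99, adjusted p = 0.0413) was lost in 14 of 20 alternatives. Cyp4a12b, a fatty acid hydroxylase of male liver, measured 12.6, 42.9 and 48.2 CPM, 2.25, 2.28 and 6.25 CPM, 6.48, 2.62 and 4.31 CPM, and 22.5, 12.2 and 7.87 CPM in the same order of groups, so that neither diet had an overlap. Its interaction was 4.94 (SE 0.85, adjusted p = 0.00891).

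The major urinary proteins Mup2, Mup8 and Mup21, pheromone carriers made in male liver, had interactions of 8.26 (SE 2.12, adjusted p = 0.0379), 6.73 (SE 1.67, adjusted p = 0.0341) and 6.12 (SE 1.18, adjusted p = 0.0135). They spread widely within groups. Mup2 measured 6.83, 22.5 and 458 CPM in CD Vec, 1.24, 1.55 and 1.16 CPM in CD oncogene, 25.1, 22.6 and 44.7 CPM in LPD Vec and 48.1, 6.42 and 175 CPM in LPD oncogene. Without CD Vec replicate 3 the interaction of Mup2 was 4.77 (adjusted p = 0.0614). Mup8 measured 9.48, 148 and 351 CPM in CD Vec, 5.81, 4.53 and 4.90 CPM in CD oncogene, 73.7, 67.6 and 112 CPM in LPD Vec and 101, 36.4 and 670.3 CPM in LPD oncogene. Only the CD oncogene libraries stood apart in Mup8. The calls of Mup2 and Mup8 were each lost in 14 of 20 alternatives, and as the Mup genes are near-identical copies, as are Cyp4a12a and Cyp4a12b, reads may be split between them. Sytl1, a synaptotagmin-like trafficking protein, measured 7.34, 6.48 and 9.06 CPM in CD Vec, 0.462, 0.449 and 0.412 CPM in CD oncogene, 4.13, 0.845 and 0.615 CPM in LPD Vec and 5.62, 2.91 and 3.45 CPM in LPD oncogene, with an interaction of 5.19 (SE 0.83, adjusted p = 0.00574). Its LPD groups overlapped through Vec replicate 1, and its call was lost with either covariate (adjusted p up to 0.0813).

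Over the list of 21 growth hormone and male-biased genes the interaction was called for 11 (52.4% against 8.91% of all genes), 9 above 0, but only Cish was reversed by 1.5-fold on each diet. The median effect was -1.65 on CD and 0.10 on LPD. Mup3 overlapped between the LPD groups, with 7512, 5542 and 7120.1 CPM in Vec and 8308, 5187 and 7044 CPM with oncogenes, and fell from 6365, 11109 and 9176 CPM to 699, 727 and 1045 CPM on CD. Its LPD effect of 0.03 (SE 0.25) stood against -3.43 on CD, and the interaction was 3.46 (adjusted p = 0.000953). Cyp4a12a had an effect of -3.66 on CD and 0.11 on LPD. Both belong to the 430 genes with opposite signs, whose effects had a median size of 1.08 on CD and 0.17 on LPD.

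A point far to the upper left of the plot of effects is 1700122H20Rik, named after its values were seen. It measured 0.153, 15.1 and 0 CPM in CD Vec, 0.0578, 0 and 0.0749 CPM in CD oncogene, 0, 0.0845 and 0 CPM in LPD Vec and 0.0977, 8.46 and 14.5 CPM in LPD oncogene livers. CD Vec replicate 2 and LPD oncogene replicates 2 and 3 thus held nearly all of its reads. Its effects were -6.61 on CD (adjusted p = 0.0437) and 7.72 on LPD (adjusted p = 0.220). Of the 90 reversed genes, 31 stayed under 5 CPM in every group, 77 were called on CD, 12 on LPD and 50 had an unadjusted p under 0.05 on LPD. The limit of 1.5-fold was met narrowly by Camk1d (-0.59 on LPD) and missed by Abca8b (-0.57 on LPD).

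An effect that did not differ between the diets was asked for more than a missed threshold. A gene was counted as equal where it was called on both diets in the same direction and the 90% interval of the interaction lay inside -1 to 1, a 2-fold margin. This margin is wider than the effects themselves of Pemt, Adss, Hgfac and Gamt on both diets and of Mertk and Il10ra on CD, so that for these it limits the difference to 2-fold and no more. Of 155 genes called on both diets in the same direction (1.11% of those tested), 14 met this (0.1% of those tested and 9.03% of the 155), 26 were called for the interaction, and the other 115 were undecided, with intervals that reached a median of 2.38 on their outer side. Over all genes tested the interval lay inside the margin for 48.8%. Of the 14, 11 were up and 3 were down with c-MET/β-catenin.

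Several of the equal genes are known from immune cells. Cxcl10, an interferon-induced chemokine, measured 1.27, 2.62 and 2.19 CPM in CD Vec, 5.23, 7.06 and 10.3 CPM in CD oncogene, 1.25, 1.61 and 0.718 CPM in LPD Vec and 4.40, 3.58 and 6.03 CPM in LPD oncogene. The groups were separate on each diet, with effects of 1.89 and 1.95 and an interaction of 0.06 (90% interval -0.84 to 0.96). Gbp2, an interferon-induced guanylate-binding protein, went from 3.62, 2.104 and 5.15 CPM to 7.34, 11.9 and 14.5 CPM on CD and from 2.69, 3.04 and 2.21 CPM to 7.09, 7.16 and 11.9 CPM on LPD, with effects of 1.62 and 1.71. Mertk, a receptor with which macrophages clear apoptotic cells, went from 16.5, 11.8 and 22.2 CPM to 31.1, 33.8 and 35.1 CPM on CD and from 16.7, 16.1 and 15.4 CPM to 32.6, 37.6 and 29.2 CPM on LPD. Its levels overlapped between the diets with vector and with oncogenes, and its interaction was 0.06 (90% interval -0.41 to 0.53).

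Il10ra, a chain of the interleukin-10 receptor, went from 3.41, 2.56 and 3.23 CPM to 6.01, 5.10 and 5.24 CPM on CD and from 2.45, 3.17 and 2.46 CPM to 5.18, 5.05 and 6.73 CPM on LPD (interaction 0.24, 90% interval -0.29 to 0.76). Ccl5, Tlr7, Cd83, Trim59 and Acyp2 also met the criteria but stayed under 5 CPM in every group, and with effects of 2.14 and 2.06 Ccl5, a chemokine of T cells, was among the larger. Marker lists of immune cells were summed beside these genes. The summed level of the macrophage list was 171 to 319.6 CPM in the CD Vec group, 560 to 792 CPM in CD oncogene, 243 to 306 CPM in LPD Vec and 309 to 527 CPM in LPD oncogene, and 10 of its 16 members were called on CD and none on LPD, beside 35.4% and 1.32% of all genes. The interaction was called for 3 of 16 macrophage genes (18.8% against 8.91% of all genes), all below 0. The T and NK cell list summed to 5.04 to 8.06, 7.55 to 11.5, 4.80 to 8.02 and 9.31 to 15.9 CPM in the same order, with none of 13 members called for the interaction or on LPD, and 3 called up and 1 down on CD. The part of immune cell number in the equal effects was not tested.

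Interferon response genes were described as a list of 20. Of these 15 rose on CD and 3 on LPD, where 35.4% and 1.32% of all genes were called. Within the list Cxcl10 and Gbp2 were equal, and Usp18, which cleaves ISG15 from proteins, was smaller on LPD (3.68 against 2.26, interaction adjusted p = 0.0344). The list had a median effect of 2.05 on CD and 0.90 on LPD, and the interval of 8 of the 20 lay inside the margin, against 48.8% of all genes.

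Gamt, Pemt and Hgfac fell on both diets. Gamt, which makes creatine from guanidinoacetate, measured 267, 263 and 287 CPM in CD Vec, 127, 189 and 184 CPM in CD oncogene, 289, 261 and 292 CPM in LPD Vec and 148, 102 and 187 CPM in LPD oncogene, with effects of -0.71 and -0.95. Pemt, which methylates phosphatidylethanolamine to phosphatidylcholine, went from 329.8, 324 and 296 CPM to 234, 245 and 219.8 CPM on CD and from 316, 300.4 and 313 CPM to 181, 193 and 242 CPM on LPD, with effects of -0.44 and -0.60 and an interaction of -0.15 (90% interval -0.48 to 0.17). Both are methyltransferases that use S-adenosylmethionine, and in both the oncogene livers lay below all Vec livers on each diet. Hgfac, the protease that activates hepatocyte growth factor, the ligand of MET, went from 198, 150.1 and 184 CPM to 118, 109 and 120.2 CPM on CD and from 180.0, 153 and 183 CPM to 101, 85.7 and 101 CPM on LPD. Its effects were -0.61 (adjusted p = 0.00370) and -0.85 (adjusted p = 0.00917), and its interaction was -0.23 (90% interval -0.56 to 0.10).

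Of the genes that rose equally, Adss, an enzyme of adenine nucleotide synthesis, measured 60.2, 57.1 and 58.9 CPM in CD Vec, 96.6, 83.7 and 93.6 CPM in CD oncogene, 51.1, 49.9 and 47.7 CPM in LPD Vec and 74.8, 75.6 and 64.1 CPM in LPD oncogene, and its interaction of -0.11 had the narrowest interval named here (-0.36 to 0.15). Rcan2, a regulator of calcineurin, went from 12.9, 9.78 and 9.32 CPM to 26.8, 54.1 and 43.5 CPM on CD and from 4.85, 6.29 and 3.59 CPM to 12.6, 16.1 and 21.2 CPM on LPD. It rose alike on both diets (1.95 and 1.75) from different levels, since LPD oncogene livers lay below those on CD (log2 fold change -1.32, adjusted p = 0.00723). None of the 14 genes met the criteria with header run as a covariate or within the run that holds all 4 groups, and Mertk alone met them with the clock score. Membership also changed with single libraries. Hgfac met the criteria in 14 of 20 alternatives, Mertk in 13, Adss and Rcan2 in 11, Il10ra in 10, Gbp2 in 6, Cxcl10 and Pemt in 5 and Gamt in 3. Nedd9 and the β-catenin target Oat lay just outside, with intervals reaching 1.01 and 1.02.

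**Figure D4:**
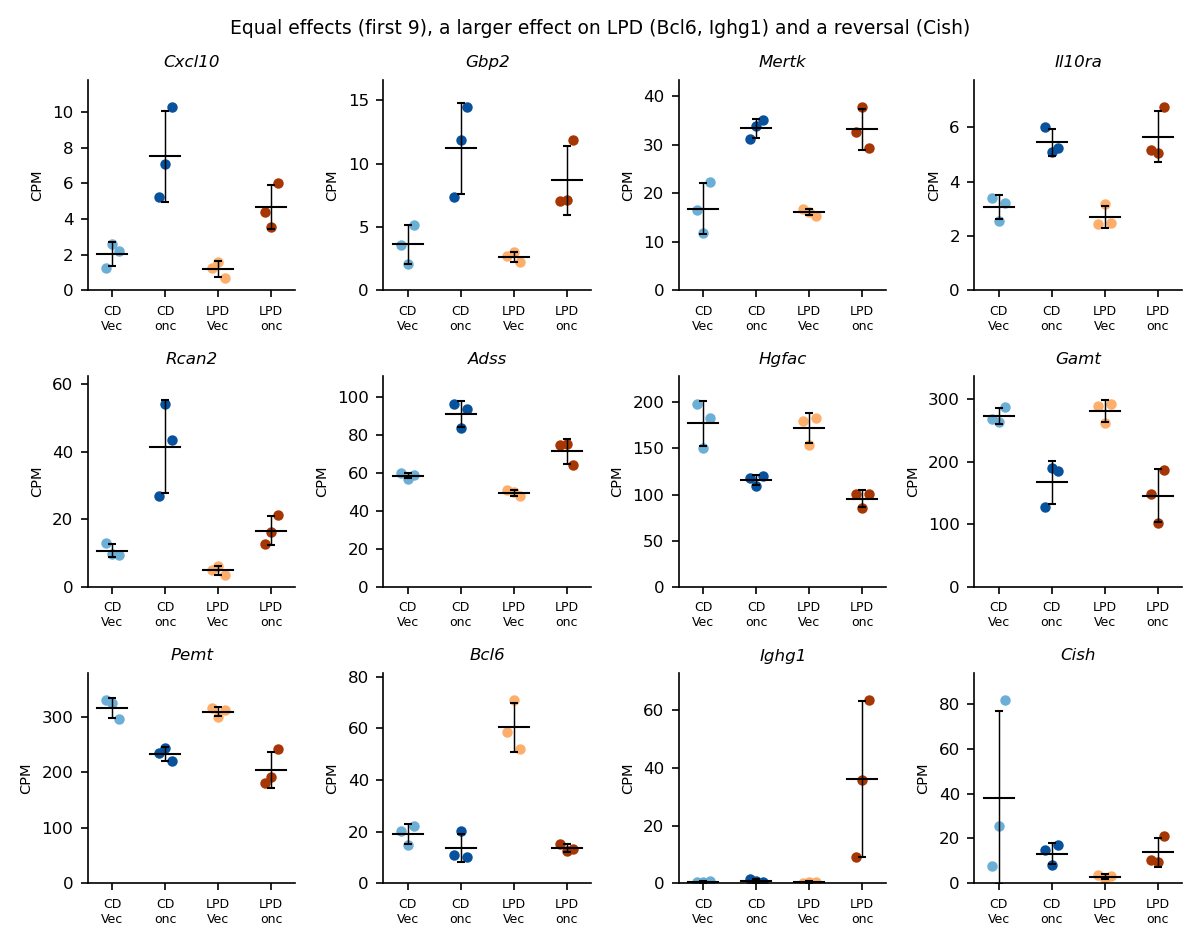
CPM of the 9 named genes with equal effects (Cxcl10 to Pemt), of Bcl6 and Ighg1, whose effect was larger on LPD, and of Cish, with each point a library and the line and bar the mean ± SD of 3 mice. In the equal genes the fold change from Vec to c-MET/β-catenin is alike on both diets within the 2-fold margin. Mertk is an example (11.8 to 22.2 against 31.1 to 35.1 CPM on CD and 15.4 to 16.7 against 29.2 to 37.6 CPM on LPD). The step in CPM can differ, as in Rcan2, with means of 10.7 and 41.5 CPM on CD and 4.91 and 16.6 CPM on LPD. Bcl6 is high in LPD Vec alone and Ighg1 in LPD oncogene alone.

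In 3 genes the effect had the same sign and was larger on LPD. Bcl6, a transcriptional repressor that opposes Stat5 in liver, measured 20.4, 14.7 and 22.3 CPM in CD Vec, 10.9, 20.1 and 10.3 CPM in CD oncogene, 58.5, 70.8 and 52.2 CPM in LPD Vec and 15.3, 12.5 and 13.1 CPM in LPD oncogene. LPD Vec livers thus stood above all 9 others, while the oncogene livers did not differ between the diets beyond their spread (-0.01, SE 0.25, adjusted p = 0.983). Its effect was -0.48 on CD (adjusted p = 0.154) and -2.15 on LPD (adjusted p = 0.00182), with an interaction of -1.67 (SE 0.35, adjusted p = 0.0165), and without LPD Vec replicate 2 the interaction call was lost (adjusted p = 0.0554), as it was within the run and with header run as a covariate (adjusted p = 0.215). Ighg1, the constant region of an IgG heavy chain, measured between 0.144 and 1.56 CPM in the other 9 libraries and 9.19, 35.6 and 63.3 CPM in LPD oncogene, with an interaction of 5.65 (SE 1.22, adjusted p = 0.0205). That call was lost with either covariate, within the run (adjusted p up to 0.373) and without CD Vec replicate 3 (adjusted p = 0.0643). Jchain, another product of plasma cells, measured 3.03, 4.56 and 10.01 CPM there and 0.664 to 3.56 CPM elsewhere (interaction 2.64, adjusted p = 0.0929). The B cell list summed to 4.56 to 16.7 CPM in the CD Vec group, 6.89 to 18.1 CPM in CD oncogene, 10.8 to 14.6 CPM in LPD Vec and 11.5 to 22.4 CPM in LPD oncogene, ranges that overlap, and none of its 8 members tested was called for the interaction. Slco1c1 was the third of these genes and stayed under 5 CPM.

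In the other lists few members were reversed or equal, and their counts of interaction genes are to be read against the 8.91% of all genes that were called. All 7 interaction genes among 23 β-catenin targets had a smaller rise on LPD. Of the 23, 10 were called on both diets, where 1.11% of all genes were called on both in the same direction. None of them met the criteria for equality, although Oat (1.69 and 1.43) and the glutamate transporter gene Slc1a2 (2.63 and 2.22) came near. Of 20 mitosis genes, 9 were called on both diets (against the same 1.11% of all genes) and none was reversed or equal. Urea cycle genes had 4 of 7 called for the interaction (57.1%), all smaller on LPD. They summed to 5941 to 8463 CPM in CD Vec and 2754 to 4323 CPM in LPD Vec. With oncogenes the sum was 826 to 1880 CPM on CD and 2090 to 3206 CPM on LPD. Periportal hepatocyte genes had 6 of 11 (54.5%), where Hsd17b6 was reversed (-3.80 and 0.71). The Atf4 amino acid response list had 8 of 22 called (36.4%), all below 0, and 4 of the 22 rose with LPD in Vec livers, where 0.186% of all genes did. Asns, the asparagine synthetase, measured 0.968, 0.284 and 1.72 CPM in CD Vec, 8.38, 19.2 and 12.7 CPM in CD oncogene, 9.45, 25.3 and 32.6 CPM in LPD Vec and 9.43, 21.2 and 15.3 CPM in LPD oncogene. The CD Vec livers were lower in Asns than all 9 others.

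Acute phase genes had 3 of 20 called (15% against 8.91% of all genes), and the pentraxin gene Apcs was reversed (1.82 and -0.96). Among hepatocyte transcription factors 6 of 19 were called (31.6%), with Onecut1 reversed and Bcl6 larger on LPD. Amino acid catabolism had 9 of 22 called (40.9%), all smaller on LPD. This list summed to 12234 to 14263 CPM in CD Vec and 7389 to 10166 CPM in LPD Vec. Its oncogene groups overlapped, at 5194 to 7154 CPM on CD and 5874 to 7601 CPM on LPD. Heat shock and ER chaperones had none of 20 called, and 17 had effects of opposite sign, as did 37.8% of all genes (median -0.67 on CD and 0.27 on LPD), and T and NK cell, B cell and metallothionein lists had none either. No list other than cholesterol synthesis had a member called in opposite directions on both diets.

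**Figure D5:**
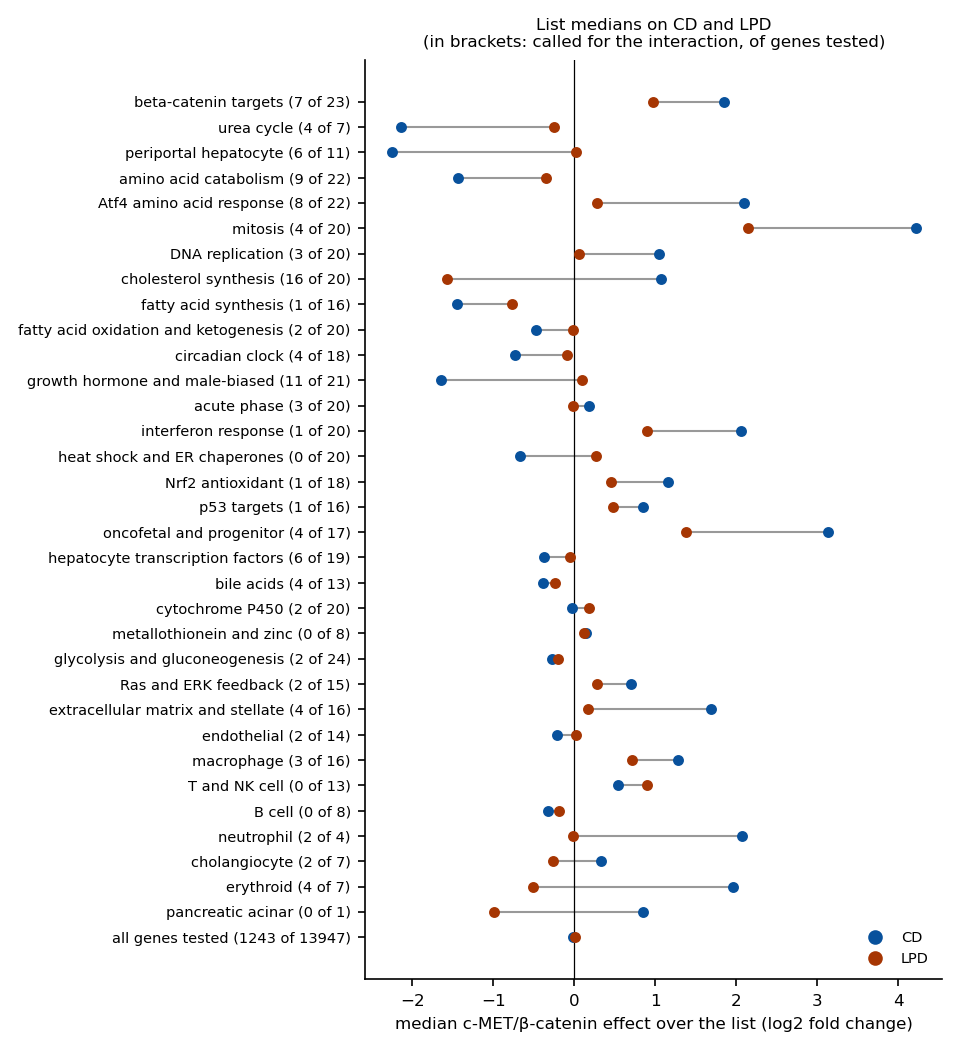
Median oncogene effect (log2 fold change over Vec) over each of 33 gene lists, on CD in blue and on LPD in dark orange, with the number called for the interaction in brackets. The 2 points of the cholesterol synthesis list lie on opposite sides of 0 (1.08 and -1.57), as do those of other lists with an LPD point nearer 0, such as erythroid (1.97 and -0.51) and growth hormone genes (-1.65 and 0.10), while for β-catenin targets, mitosis and urea cycle genes both lie on the same side.

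Between 19476209 and 31990267 counts were assigned to genes in a library, and the biological coefficient of variation was 23.2%. Replicates of a group correlated across genes at 0.961 to 0.988 in log2 CPM, where genes are not independent replicates. No pair of libraries within a group was a duplicate, and pairs across groups were not checked for this. The labels name no litters or batches. The p-values rest on a spread between mice within groups that was estimated per gene over all 4 groups of 3. As the header runs are not balanced over the groups, a difference between runs would enter the effects.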

How the data were processed

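RNA from 12 mouse livers was sequenced, and the authors deposited 1 table of raw counts per gene, which the study's methods attribute to HISAT2 alignment to mm10 and featureCounts. The labels name an rRNA depletion kit and the methods an mRNA kit. Columns that the table calls HPD were taken as chow. Gene symbols came from RefSeq for 25275 identifiers and GENCODE for 18.

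Counts were filtered with filterByExpr (13947 of 27179 genes kept), scaled by TMM and fitted over all 12 libraries with edgeR 4.0.16 (quasi-likelihood test, robust dispersion, R 4.3.3). Contrasts gave the oncogene effect on each diet and their difference, with Benjamini-Hochberg adjustment over all genes tested. The steps were tested on simulated data. Named genes were up to 12 genes called in opposite directions, up to 12 equal genes and 8 reversed genes in each direction, ranked by the smaller effect, genes with a larger effect on LPD, and list members. Except for list members, a group mean had to reach 5 CPM and a full gene name to exist, pseudogenes left out. The members, lists and rules were chosen with earlier results of these data known.

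Alternatives were DESeq2 1.42.0, total counts only, no filter, non-robust dispersion, a replicate block, header run and clock score as covariates, the 7 libraries of 1 run, other thresholds and the omission of each library. Replicate numbers did not pair the samples: 18 pairs of libraries with the same number in different groups had correlations of deviations from -0.183 to 0.167, 2 of them over 0.1. Values of 4 members of the cholesterol synthesis list are not reported here, though they count in the list's totals.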

Additional observations from a re-analysis of the deposited data

Results flagged for a closer look

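The oncogene effect differed between the diets by the interaction test for 1243 genes. Those chosen for their effects by the naming rule, and not only as list members, are given here. Those with an interaction below 0 were Hmgcs1 (-3.94), Sqle (-3.55), Nsdhl (-3.003), Lss (-2.65), Mvd (-3.01), Fdps (-2.86), Ggct (-1.94), Msmo1 (-3.01), Aldoc (-1.98), Nfe2 (-5.29), Arhgef2 (-4.18), Mvk (-3.24), Egr1 (-4.49) and Bcl6 (-1.67). Those above 0 were Mup8 (6.73), Cyp4a12b (4.94), Cish (3.74), Alas1 (3.50), Mup2 (8.26), Mup21 (6.12), Sytl1 (5.19), Onecut1 (3.72) and Ighg1 (5.65). All values are differences of log2 fold changes, LPD minus CD.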

How the results depend on the processing

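Under DESeq2 there were 2083 genes called for the interaction, 497 for the LPD effect, 28 opposite calls, 138 reversed genes and 76 equal genes. With header run as a covariate the interaction was called for 85 genes, the CD effect for 945, the LPD effect for 75, opposite calls for 2, reversal for 15 and equality for 2. Of these, 1 opposite call and 0 equal genes were shared with the fit without it. With the clock score they were 233 for the interaction, 1718 genes called for c-MET/β-catenin on CD, 6 opposite, 28 reversed and 3 equal, and within the run that holds all groups 390, 1745, 17, 48 and 23, of which 2 opposite and 0 equal genes were shared. CD had 1 library per arm there, taken to vary like the LPD groups. An adjusted p under 0.1 gave 2201 interaction genes, 23 opposite and 46 equal. A 2-fold limit gave 43 reversed genes, a 1.5-fold margin 4 equal genes and a margin relative to the CD effect 26, of which 3 were among the 14 equal genes of the report. The cause of these changes was not tested.

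Leaving out 1 library gave 391 (without LPD Vec replicate 2) to 1404 interaction genes, 52 (without LPD Vec replicate 1) to 254 LPD genes, 2 to 16 opposite, 44 to 101 reversed and 1 to 31 equal. The interaction count fell to 542 without LPD Vec replicate 3, to 787 without LPD Vec replicate 1, and to 645 and 508 without LPD oncogene replicates 1 and 3. The LPD count fell to 96 without LPD oncogene replicate 2. Equality moved to 9 genes without CD Vec replicate 1, to 31 without CD Vec replicate 2 and to 27 when CD oncogene replicate 1 was omitted.

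The replicate block gave 812 genes called for the interaction, 791 of them shared with the fit without it, and 3 of 12 libraries correlated best with their own number. The share of interaction genes above 0 was 50.4% and became 29% with total counts only, 37.6% with header run, 37.3% with the clock score and 59% within the run. Among values of named genes under these alternatives, 311 lost their call, 30 interval bounds moved and none reversed.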
